A study of Mus musculus with 2 samples.

Results

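Well-expressed long non-coding RNAs were followed in MDSCs grown from mouse bone marrow. Such myeloid-derived suppressor cells are immature granulocyte-like and monocyte-like cells that can restrain T cells. The members were the genes on chromosomes 1 to 19 that the deposited table annotates as lincRNA, antisense, bidirectional-promoter, sense-intronic or sense-overlapping transcripts and that had at least 100 counts over both libraries. This gave 163 genes of 54751 in the table, and of 8209 autosomal genes of the same annotated types. The study held 2 libraries, both from wild-type bone marrow cells kept in RPMI medium with fetal bovine serum and collected on day 6. The control cells received vehicle and the other cells received mrWNT2, an agent named after the secreted ligand WNT2, with treatment on day 0 and day 3 in each case. The labels give neither the dose nor the number of animals behind each culture. Each group was 1 library, so no difference below has a replicate check, no test could be run, and the 2 libraries are compared, not the conditions. Intervals are exact 95% binomial (Clopper-Pearson) intervals of the ratio of the 2 counts and cover counting error only.

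Long non-coding RNAs are transcripts without a conserved long reading frame. Some build nuclear bodies, some carry small nucleolar RNAs (snoRNAs) or microRNAs in their introns or exons, and many start beside or opposite a protein-coding gene. In myeloid cells several are induced by inflammatory signals, and others are tied to the survival and differentiation of granulocytes and monocytes.

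Depth was 13474453 counts in control and 12621110 in mrWNT2, of which the members took 0.451% and 0.39%. Reads amplified without molecular identifiers are not independent molecules. Levels are given as CPM, counts scaled to the library size after TMM adjustment, and, where genes are compared with each other, as the authors' deposited FPKM, which is also scaled to gene length. Of the granulocyte and MDSC markers, S100a8, S100a9, Itgam and Ly6c2 were abundant in both libraries and Ly6c1 had 18 counts in each. The summed level of that list was 56787 CPM in control and 45474 CPM in mrWNT2. All 9 of its genes with at least 100 counts were lower in mrWNT2 with intervals that excluded 1. Of all 10439 genes with at least 100 counts, 46.7% were lower and 2185 had such an interval. The median log2 ratio of the 9 was -0.32, close to that of the long non-coding RNAs below. Ltf (1.55-fold) and Ly6g (2315 and 1098 counts) differed most, and Itgam (1.04-fold) and Ly6c2 (1.06-fold) least. Intervals of such abundant genes are narrow and leave out the choice of scaling. Macrophage markers differed between the libraries: their summed level was 2693 CPM in control and 1801 CPM in mrWNT2, and of 9 with at least 100 counts 7 were at least 1.5-fold lower and 2, Adgre1 and Marco, at least 1.5-fold higher. B cell markers summed to 49.95 and 31.8 CPM. Megakaryocyte markers summed to 485 and 220 CPM, a difference that lay in Pf4 (414 and 150 CPM), while Itga2b had 68.1 and 66.9 CPM and Gp9 2.99 and 2.91 CPM. Stromal and endothelial markers summed to 70.5 and 80.0 CPM, with members in opposite directions: Lepr was 7.94-fold higher, whereas Col1a1 (2.61-fold), Col1a2 (4.18-fold), Bgn (2.96-fold) and Sparc (3.07-fold) were lower, each with an interval that excluded 1. T and NK cell markers summed to 2.54 and 1.34 CPM with Ncr1 at 0 counts in both libraries, and erythroid markers to 0.748 and 0.629 CPM with Hbb-bs at 0. The part of these cell types in the differences below was not tested, and in bulk RNA fewer cells of a type and less RNA per cell cannot be told apart.

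The members as a set sat lower in the mrWNT2 library. Their median log2 ratio of mrWNT2 over control was -0.28, against 0.02 over all 10439 genes with at least 100 counts and 0.02 over the 9811 protein-coding genes among them. Of the 163 members, 118 (72.4%) had a ratio below 1, compared with 46.7% of all genes. At least 1.5-fold lower were 45 members, or 27.6%, where the background was 4.19% of all genes and 3.25% of protein-coding genes. At least 1.5-fold higher were 9 members, or 5.52%, where the background was 5.4% of all genes and 5.25% of protein-coding genes. These backgrounds are not matched for depth, and 72 of the 163 members had under 200 counts. Among protein-coding genes of 100 to under 200 counts 13.5% were at least 1.5-fold higher and 7.39% lower. Among members of that range it was 2.78% and 22.2%. For 63 members the whole interval was under 1, for 16 it was over 1, and for 84 it included 1. Over all 10439 genes it was under 1 for 2185, over 1 for 2455 and included 1 for 5799.

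**Figure D1:**
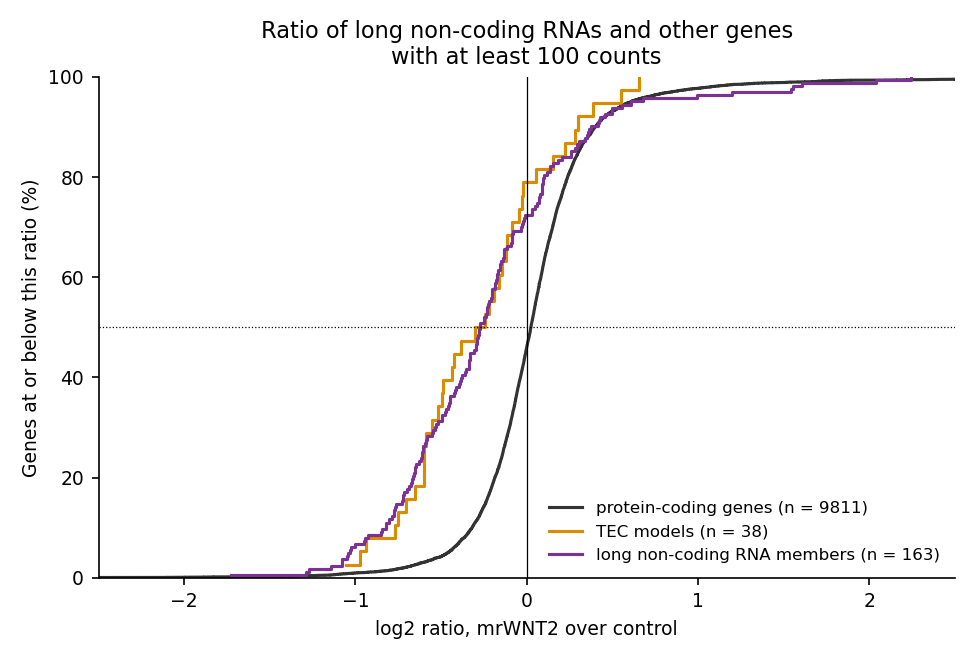
Cumulative share of genes (vertical axis, percent) at or below each log2 ratio of mrWNT2 over control (horizontal axis) for the 163 long non-coding RNA members, 9811 protein-coding genes and 38 models of the TEC class, all with at least 100 counts over both libraries; the axis leaves out the most extreme protein-coding genes. The member curve crosses 50% at -0.28 and the protein-coding curve at 0.02.

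The lower median was found in most subdivisions of the set. The 108 lincRNAs had a median log2 ratio of -0.29 and the 39 antisense RNAs one of -0.23, whereas the 10 bidirectional-promoter RNAs, which start beside a protein-coding gene on the other strand, had -0.05. All 5 sense-intronic RNAs, which lie in introns of a gene on the same strand, were lower, 4 of them by at least 1.5-fold, with a median of -0.65. Their reads cannot be told apart from unspliced RNA of that gene, with or without strand in the counting. The lone sense-overlapping RNA, 9230112E08Rik, had 131 counts in control and 112 in mrWNT2. Members of 100 to under 200 counts had a median of -0.23, those of 200 to under 400 counts -0.28, those of 400 to under 1000 counts -0.45 and the 18 with 1000 or more -0.16. For protein-coding genes in the same ranges the medians were 0.09, 0.05, 0.05 and -0.01. The 34 members made of 1 exon block had a median of -0.29 and the 129 with more blocks one of -0.25.

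The median was below that of protein-coding genes in every range of base composition and length. Members whose longest transcript had under 45%, 45 to 50% and 50% or more G and C had median log2 ratios of -0.26, -0.21 and -0.36, and protein-coding genes in the same ranges had 0.02, 0.03 and 0.02. By deposited gene length, members under 2000 bases, of 2000 to 5000 and of 5000 or more had medians of -0.32, -0.24 and -0.25, and protein-coding genes had 0.09, 0.05 and -0.02. Across the 163 members, Spearman's rho between GC content and log2 ratio was -0.06, a description over genes that share the same 2 libraries. Exons of 69 members overlap exons of another annotated gene, on either strand. The sources used here do not state whether counting used the strand, so for such members reads of either partner cannot be told apart. The class without exon overlap still holds members inside introns of another gene, such as CT571247.2 and Gm13012. Their reads may in part come from unspliced RNA of that gene, which was not tested. The 94 members without exon overlap had the lower median of the 2 classes, -0.36, with 37 at least 1.5-fold lower and 5 higher, while the 69 with overlap had -0.18, with 8 lower and 4 higher.

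A further annotated class had a similar distribution. TEC models are transcribed regions that still await evidence for a gene structure, and the 38 with at least 100 counts had a median log2 ratio of -0.27, with 30 of 38 below 0. The 52 genes annotated as processed_transcript, many of them also non-coding and most of the snoRNA hosts among them, had a median of -0.05, with 2 at least 1.5-fold higher and 6 lower.

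At least 2-fold apart were 17 members. Of these 6 (3.68%) were higher in mrWNT2, where 2.31% of all genes were. Lower were 11 (6.75%), where 1.25% of all genes and 0.978% of protein-coding genes were. At 100 to under 200 counts 2.78% of members were 2-fold higher and 8.33% lower, and 5.66% and 3.17% of protein-coding genes. The interval of each of the 17 excluded a ratio of 1, as it did for all 241 higher and 131 lower genes of the background. The count minimum and the fold together fix this outcome, so it adds no support.

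**Figure D2:**
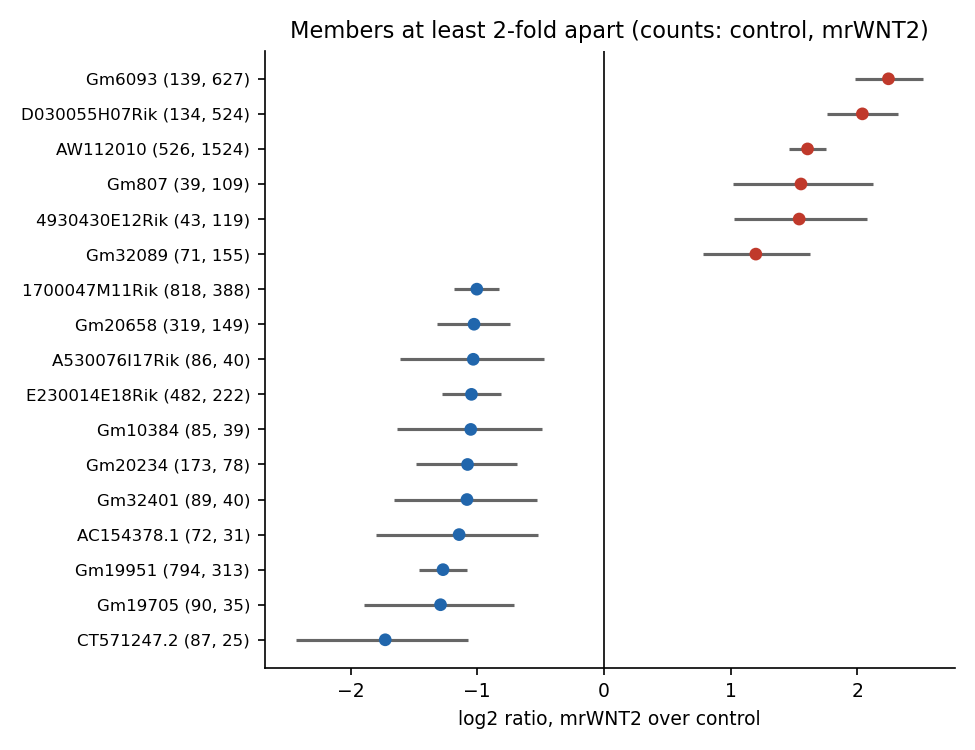
Log2 ratio of mrWNT2 over control (horizontal axis) for the 17 members at least 2-fold apart, with raw counts in the control and mrWNT2 library beside each name. Points are ratios and bars are 95% binomial intervals that cover counting error only. None of the bars reaches 0, an outcome fixed by the count minimum and the fold.

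Sequence windows from 250 bases before to 50 bases after the start site (RefSeq, build GRCm38.p6) are shown for the higher and lower members at the ends of this range, since these starts carry the largest differences. Of the 163 members, 73 had a RefSeq start within 1 kb of the deposited one. The motifs searched on both strands were TGANTCA (AP-1), GAGGAAGT (PU.1), CACGTG (the E-box), TATAAA (the TATA box), CCAAT (the CCAAT box) and CTTTC (a pyrimidine run). Capitals mark matches on either strand, and adjoining capitals would be overlapping matches. All are written 5′ to 3′ on the strand of the gene. The first 3 belong to the highest ratios and the last 3 to the lowest among the members with such a RefSeq start. The RefSeq starts of D030055H07Rik, E230014E18Rik and Gm32401 lie 687, 342 and 219 bases from the deposited ones.
Gm6093, chr13:33569268-33569567, minus strand: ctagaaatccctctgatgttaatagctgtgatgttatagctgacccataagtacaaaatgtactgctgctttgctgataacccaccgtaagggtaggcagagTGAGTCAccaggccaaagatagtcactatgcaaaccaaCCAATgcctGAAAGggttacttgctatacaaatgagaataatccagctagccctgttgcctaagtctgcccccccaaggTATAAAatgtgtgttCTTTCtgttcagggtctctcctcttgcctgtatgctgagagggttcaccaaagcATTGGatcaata
D030055H07Rik, chr9:106147750-106148049, plus strand: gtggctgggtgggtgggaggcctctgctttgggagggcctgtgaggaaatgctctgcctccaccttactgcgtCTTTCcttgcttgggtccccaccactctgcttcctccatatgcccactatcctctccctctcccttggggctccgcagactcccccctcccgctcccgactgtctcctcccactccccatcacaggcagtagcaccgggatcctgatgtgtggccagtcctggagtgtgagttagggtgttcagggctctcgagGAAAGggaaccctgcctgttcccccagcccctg
AW112010, chr19:11050517-11050816, minus strand: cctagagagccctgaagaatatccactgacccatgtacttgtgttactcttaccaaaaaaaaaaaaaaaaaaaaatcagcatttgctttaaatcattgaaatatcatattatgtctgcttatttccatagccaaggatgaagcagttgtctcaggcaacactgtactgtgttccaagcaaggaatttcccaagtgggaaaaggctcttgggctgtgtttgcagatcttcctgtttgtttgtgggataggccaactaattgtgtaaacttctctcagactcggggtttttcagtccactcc
Gm19951, chr12:99642846-99643145, plus strand: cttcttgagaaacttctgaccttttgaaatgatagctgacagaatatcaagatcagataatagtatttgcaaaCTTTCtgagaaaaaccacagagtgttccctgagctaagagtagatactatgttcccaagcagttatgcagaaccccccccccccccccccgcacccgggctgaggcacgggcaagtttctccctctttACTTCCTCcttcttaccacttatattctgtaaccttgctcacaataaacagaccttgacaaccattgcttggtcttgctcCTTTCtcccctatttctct
Gm32401, chr13:41486661-41486960, plus strand: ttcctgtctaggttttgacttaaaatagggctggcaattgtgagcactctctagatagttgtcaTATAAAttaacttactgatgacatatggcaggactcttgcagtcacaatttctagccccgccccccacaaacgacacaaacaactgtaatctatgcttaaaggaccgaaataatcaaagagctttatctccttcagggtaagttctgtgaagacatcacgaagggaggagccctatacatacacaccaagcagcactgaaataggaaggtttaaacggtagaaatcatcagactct
E230014E18Rik, chr10:84517453-84517752, plus strand: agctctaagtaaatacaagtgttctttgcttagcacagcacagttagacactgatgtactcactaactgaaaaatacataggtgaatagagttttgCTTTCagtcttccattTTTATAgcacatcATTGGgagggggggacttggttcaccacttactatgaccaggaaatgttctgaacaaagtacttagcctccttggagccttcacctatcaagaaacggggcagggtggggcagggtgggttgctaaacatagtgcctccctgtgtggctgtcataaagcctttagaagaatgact

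The Gm6093 window holds TGAGTCA, a match to the AP-1 motif, starting 148 bases before the start site, and TATAAA starting 31 bases before it. The AW112010 window holds none of these motifs. A search for the wider NF-kB consensus, added after the data were seen and not marked by capitals, found a match there that starts 70 bases before the start site and none in the other windows shown. That consensus was in 3 of 73 member windows (4.11%) and 4.82% of all windows, and a narrower form searched first, absent from the windows shown, in 2 (2.74%) and 1.6%. In the Gm19951 window the PU.1 motif, on the opposite strand, starts 49 bases before the start site. PU.1 is a transcription factor of the myeloid lineage, and its motif was in 9 of 73 member windows (12.3%), against 3.3% of all 17353 windows and 3.61% of those of the measured protein-coding genes. The AP-1 motif was in 4 of 73 member windows (5.48%) and 6.93% of all windows. Shares for the E-box were 9.59% and 8.25%, for the TATA box 8.22% and 11.7%, for the CCAAT box 41.1% and 38.2%, and for the pyrimidine run 57.5% and 55.3%. Member windows had a median of 9 CpG dinucleotides, those of measured protein-coding genes 22, those of the 19 members at least 1.5-fold lower 3 and those of the 5 at least 1.5-fold higher 2. A match is a description of letters only.

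The higher members were led by Gm6093 (ENSMUSG00000112963, chromosome 13, 33562486 to 33569317, GRCm38), a lincRNA of 4 exon blocks. Its counts were 139 in control and 627 in mrWNT2, or 10.4 and 49.3 CPM, a 4.74-fold higher level (3.94 to 5.74). Its nearest protein-coding gene, Serpinb9g, lies 66482 bases away and had 0 and 1 counts.

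D030055H07Rik (chromosome 9, 106148687 to 106160201), annotated as antisense, had 134 and 524 counts and was 4.11-fold higher (3.40 to 5.01). It overlaps Glyctk, the glycerate kinase gene on the other strand, over 2203 exonic bases. Glyctk had 74 and 231 counts and was 3.28-fold higher (2.52 to 4.33), so both partners were higher and the split of their reads is uncertain. Within the bounds of D030055H07Rik lies Mir135a-1, whose main product is shown with the other microRNAs below.

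AW112010 (chromosome 19, 11047617 to 11050566) is an RNA induced in macrophages by bacterial and interferon signals, and it has been described to be translated despite its annotation. Its counts were 526 in control and 1524 in mrWNT2, and it was 3.05-fold higher (2.76 to 3.37), and held the highest FPKM of all members in the mrWNT2 library, 154 from 51.7 in control. Its nearest protein-coding gene, Ms4a8a, lies 16905 bases away on the same strand and had 705 and 685 counts.

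The other higher members were less abundant. Gm807 had 39 and 109 counts (2.94-fold, 2.02 to 4.35), 4930430E12Rik 43 and 119 (2.91-fold, 2.04 to 4.23) and Gm32089 71 and 155 (2.30-fold, 1.72 to 3.08). The protein-coding genes nearest to the last 2, Sdcbp and Scamp1, were 1.09-fold and 1.18-fold higher.

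**Figure D3:**
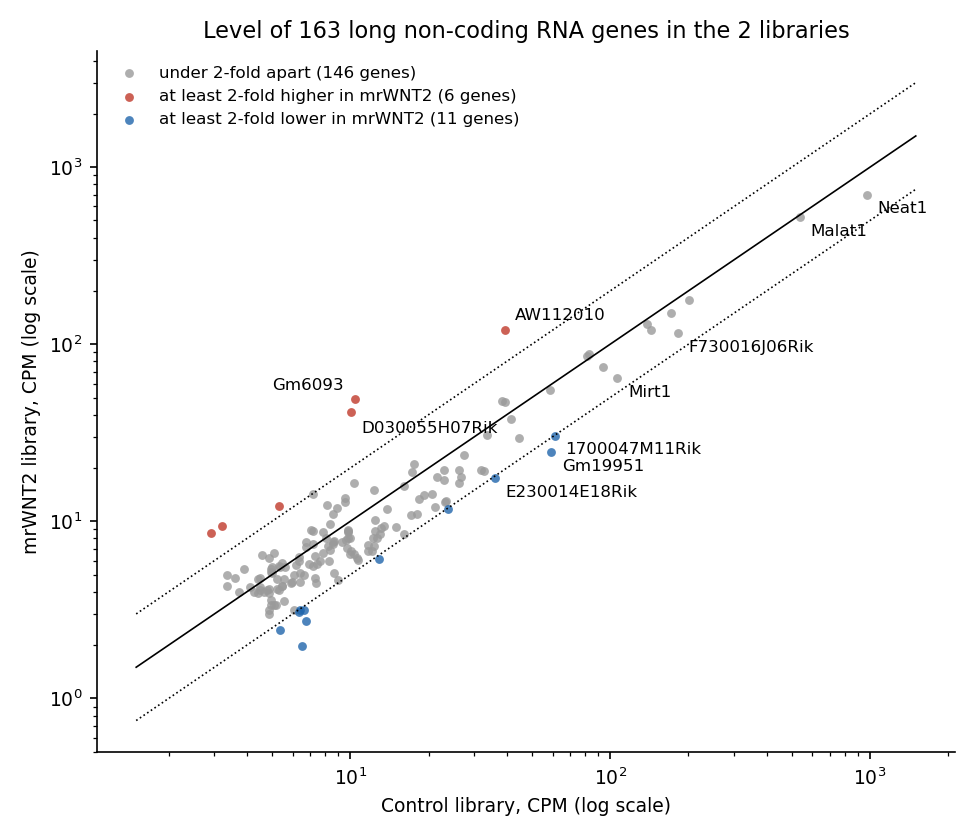
Level of each of the 163 members in the control library (horizontal axis) and in the mrWNT2 library (vertical axis), both in CPM on log scales. The solid line marks equal levels and the dotted lines a 2-fold difference; AW112010 sits above the upper dotted line, and Neat1, the most abundant member, lies between the solid and the lower dotted line.

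Among the lower members CT571247.2 had the lowest ratio. It is a sense-intronic RNA (chromosome 17, 57068260 to 57069360) in the gene body of Dennd1c, a Rab-activating protein gene, with 87 counts in control and 25 in mrWNT2, 3.31-fold lower (2.10 to 5.39). Dennd1c itself had 2220 and 1368 counts and was 1.54-fold lower (1.44 to 1.65). Its unspliced RNA may add reads to CT571247.2. Gm19951 (chromosome 12, 99643093 to 99647221) was the most abundant of the strongly lower lincRNAs by FPKM, at 45.2 in control and 18.3 in mrWNT2, from 794 and 313 counts. It was 2.41-fold lower (2.11 to 2.76), and its nearest protein-coding gene, Efcab11, had 99 and 82 counts.

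1700047M11Rik had 818 and 388 counts (2.005-fold lower, 1.77 to 2.27) and E230014E18Rik 482 and 222 (2.06-fold, 1.76 to 2.43). These lie near Degs1, a sphingolipid desaturase gene, and Ckap4, which were 1.08-fold and 1.17-fold lower. Gm20658 had 319 and 149 counts and was 2.04-fold lower. Gm20234, opposite the Schlafen gene Slfn2, had 173 and 78 counts and was 2.11-fold lower (1.61 to 2.79), whereas Slfn2 had 8404 and 8700 counts and was 1.09-fold higher. The remaining members at least 2-fold lower, Gm19705, AC154378.1, Gm32401, Gm10384 and A530076I17Rik, had between 72 and 90 counts in control and between 31 and 40 in mrWNT2.

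Neat1 and Malat1, RNAs of nuclear bodies, carried much of the members' total. Neat1 (chromosome 19, 5824708 to 5845478), the scaffold of paraspeckles, had 13029 counts in control and 8883 in mrWNT2, or 974 and 699 CPM. It was 1.39-fold lower (1.36 to 1.43) and accounted for 21.4% of member counts in control and 18.03% in mrWNT2. Its neighbour Malat1 (chromosome 19, 5795690 to 5802672), an RNA of nuclear speckles that lies 22035 bases from Neat1, had 7165 and 6671 counts, with a ratio that spanned 1 (1.02-fold lower, 0.988 to 1.06). The intervals of these 2 adjacent genes do not overlap. Tug1 had 1915 and 1533 counts (1.19-fold lower, 1.11 to 1.27), and 2900097C17Rik, the mouse NORAD gene whose RNA binds Pumilio proteins, 1848 and 1657 (1.06-fold lower, 0.992 to 1.13). Kcnq1ot1, an imprinted antisense RNA, had 110 and 92 counts. These 5 members were listed together as nuclear architecture RNAs, a list wider than nuclear bodies. None of the 5 was 1.5-fold apart, where 90.4% of all genes were within 1.5-fold, and their median log2 ratio was -0.19. The 10 listed paraspeckle proteins were all within 1.5-fold, where 91.5% of protein-coding genes were, with a median of 0.08. The core proteins Sfpq, Nono and Pspc1 were 1.21-fold, 1.05-fold and 1.30-fold higher, with an interval for Nono that included 1.

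Without Neat1 and Malat1 the members' summed level was 3036 CPM in control and 2652 CPM in mrWNT2, 1.14-fold lower, against 1.17-fold lower with them. Other abundant members were 1700020I14Rik, known as Cyrano, which drives decay of a microRNA (2682 and 2258 counts, 1.13-fold lower, 1.07 to 1.195), and Gm42047 (2287 and 1909, 1.14-fold lower). F730016J06Rik had 2433 and 1471 counts and was 1.57-fold lower (1.47 to 1.68). It starts 10592 bases from the ficolin gene Fcnb on the other strand, a granulocyte gene that was 1.36-fold lower (1.23 to 1.503). Brip1os and A930007I19Rik, with 1107 and 1093 counts in control, were 1.06-fold and 1.05-fold higher with intervals that included 1. AC140186.1 and Ndufb1-ps, among the 5 highest members by FPKM, were 1.26-fold (1.16 to 1.38) and 1.06-fold (0.957 to 1.18) lower.

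**Figure D4:**
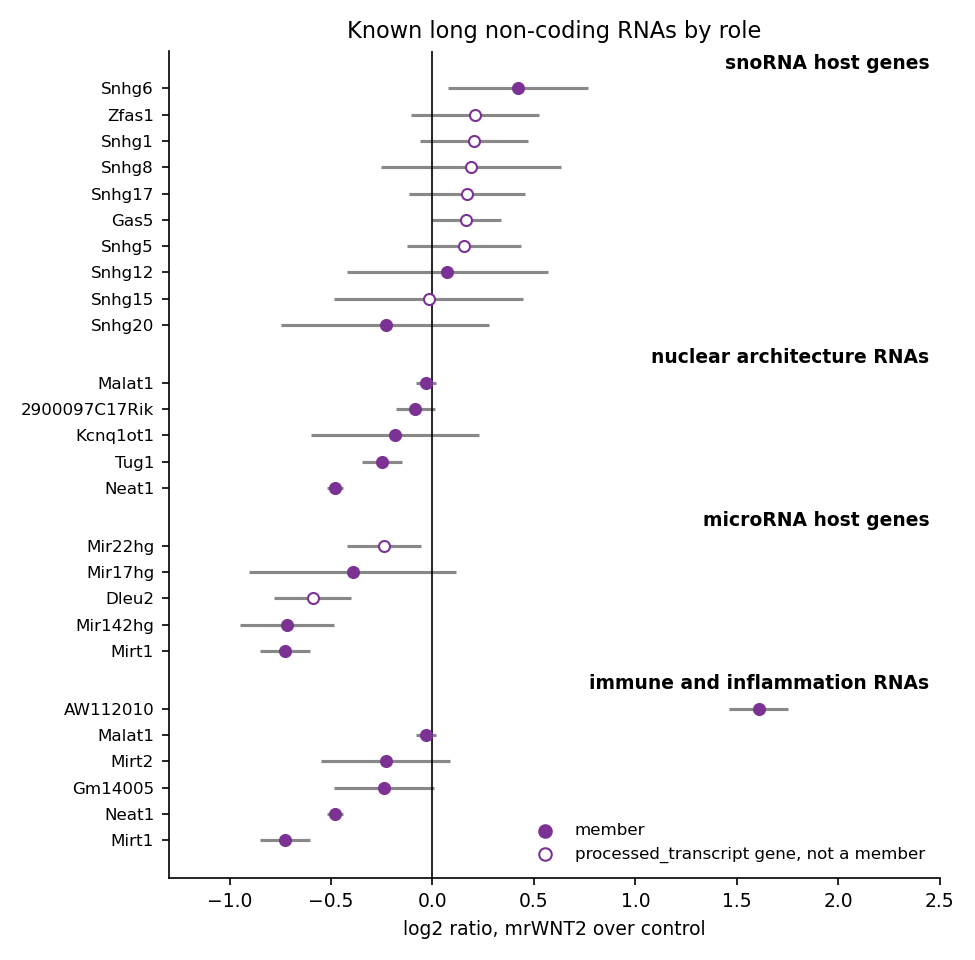
Log2 ratio of mrWNT2 over control (horizontal axis) for listed long non-coding RNAs with at least 100 counts, grouped by role; a gene in more than 1 list is drawn in each. Filled points are members, open points are processed_transcript genes outside the member rule, and bars are 95% binomial intervals; AW112010 lies at 1.61, and the 5 genes of the microRNA host list lie between -0.73 and -0.24.

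Of 4 listed microRNA host genes that were measured, 2 were at least 1.5-fold lower and 0 higher. Their median log2 ratio was -0.49, and 4.19% of all genes were at least 1.5-fold lower. With Mirt1, which was listed with them but holds no annotated microRNA gene, 3 of 5 were lower and the median was -0.59. The list leaves out members that hold a microRNA gene by position. Of these, D030055H07Rik was 4.11-fold higher, though it may share reads with Glyctk. Gm37233, Gm35853 and Snhg20 were 1.45-fold, 1.71-fold and 1.17-fold lower, the last with an interval that included 1. The listed host Mir155hg, too rare to be counted here, was 7.01-fold higher. The direction of the list thus does not hold for all microRNA hosts. Mature microRNAs were not measured here, so the sequences below show only what these host genes carry. Capitals mark the seed, bases 2 to 8 from the 5′ end, which pairs with target RNAs. The first pair comes from Mir142hg, the last from D030055H07Rik, and the others from the Mir17hg cluster, in which miR-17-5p and miR-20a-5p share 1 seed and miR-19a-3p and miR-19b-3p another.
miR-142a-5p: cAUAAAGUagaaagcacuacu
miR-142a-3p: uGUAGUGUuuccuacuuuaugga
miR-17-5p: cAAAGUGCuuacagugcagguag
miR-20a-5p: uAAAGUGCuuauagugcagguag
miR-18a-5p: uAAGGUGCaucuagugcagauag
miR-19a-3p: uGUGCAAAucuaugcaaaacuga
miR-19b-3p: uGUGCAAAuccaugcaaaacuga
miR-92a-3p: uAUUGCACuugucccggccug
miR-135a-5p: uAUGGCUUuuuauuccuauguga

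Mir142hg (chromosome 11, 87755577 to 87757270), host of the blood-cell microRNA miR-142, had 427 counts in control and 247 in mrWNT2 and was 1.64-fold lower (1.40 to 1.93). With 120 FPKM in control it was the highest member of that library per length. Mir17hg, which carries 6 microRNA genes of a growth-promoting cluster, had 80 and 58 counts, with a ratio that spanned 1 (1.31-fold lower, 0.924 to 1.87). Of the listed hosts outside the member rule, Dleu2, host of miR-15 and miR-16 family members, had 598 and 378 counts (1.504-fold lower, 1.32 to 1.72) and Mir22hg 563 and 454 (1.18-fold lower, 1.04 to 1.34). Mir155hg, host of the inflammation-induced miR-155, was too rare to be a member, with 3 counts in control and 20 in mrWNT2 (7.01-fold higher, 2.08 to 36.8). Mirt1 is named for its rise after heart injury. It had 1427 and 820 counts and was 1.65-fold lower (1.52 to 1.81). By position, Gm37233 and Gm35853 each hold 1 microRNA gene, and they were 1.45-fold (1.196 to 1.75) and 1.71-fold (1.29 to 2.28) lower. The 8 listed proteins of microRNA processing, among them Drosha and Dicer1, were within 1.5-fold, where 91.5% of protein-coding genes were. Their median log2 ratio was 0.03.

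SnoRNA host genes had ratios mostly above 1, though of 10 measured the interval excluded 1 for 1 gene, Snhg6. Their spliced RNAs often start with a run of pyrimidines, a feature of growth-regulated transcripts, and the window of Snhg12 is shown because its CTTTC match starts 1 base before the annotated start site. These letters are in 55.3% of all windows, and the window of Snhg20 holds no match to them. The RefSeq starts of Snhg12 and Snhg20 lie 55 and 775 bases from the deposited ones, so the Snhg20 window may miss the start of the counted gene.
Snhg12, chr4:132308428-132308727, plus strand: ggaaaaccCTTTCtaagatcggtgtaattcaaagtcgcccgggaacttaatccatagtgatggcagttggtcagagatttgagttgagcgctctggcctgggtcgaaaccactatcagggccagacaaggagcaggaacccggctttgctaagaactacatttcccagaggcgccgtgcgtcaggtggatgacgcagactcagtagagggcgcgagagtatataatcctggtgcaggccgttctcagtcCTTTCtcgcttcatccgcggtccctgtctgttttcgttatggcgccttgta

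Snhg6 had 128 counts in control and 163 in mrWNT2 and was 1.34-fold higher (1.06 to 1.70). Snhg12, within which 5 snoRNA models are annotated, had 71 in each (1.05-fold higher, 0.746 to 1.48), and Snhg20 had 74 and 60 (1.17-fold lower, 0.823 to 1.68). Within 1.5-fold were all 10 listed hosts with at least 100 counts, of which these 3 are members, and 90.4% of all genes. The median log2 ratio of these hosts was 0.17. Gas5, the most abundant of them, had 546 and 583 counts (1.12-fold higher, 0.997 to 1.26). The 10 listed proteins that bind or modify with snoRNAs had a median of 0.19, with Nhp2 1.27-fold and Npm1 1.19-fold higher. All were within 1.5-fold, where 91.5% of protein-coding genes were. Several processed host RNAs are cleared by nonsense-mediated decay. The 10 listed factors of that pathway were also within 1.5-fold, near the same share of 91.5%, with a median of -0.06.

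Of the listed RNAs tied to immunity, imprinting and growth, 4 of 6, 1 of 2 and 4 of 5 measured genes were within 1.5-fold, where 90.4% of all genes were. Gm14005, known as Morrbid, controls the death gene Bcl2l11 in short-lived myeloid cells, and had 308 and 248 counts (1.18-fold lower, 0.996 to 1.40), while Bcl2l11 had 588 and 529. Mirt2, a feedback RNA of endotoxin signalling, had 185 and 150 (1.17-fold lower, 0.940 to 1.46). Of 6 listed immune members, AW112010 was at least 1.5-fold higher and Mirt1 at least 1.5-fold lower. The imprinted RNA Peg13, in an intron of Trappc9, had 595 and 375 counts and was 1.51-fold lower (1.32 to 1.72), whereas Trappc9 had 443 and 409 (1.03-fold lower, 0.898 to 1.18). Pvt1, which lies next to Myc, had 48 and 61 counts (1.34-fold higher, 0.901 to 1.99), and Myc was 1.07-fold lower. Gm26917, from the list of models that overlap ribosomal RNA, had 165 and 191 counts (1.22-fold higher, 0.983 to 1.51).

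The nearest protein-coding gene was found for each member. It overlapped the member in 67 cases, 54 of them on the opposite strand, lay within 10 kb in 50 more and further away in 46. In 127 pairs this neighbour also had at least 100 counts. For 4 members it was Gm20388, a long read-through model without counts.

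Neighbours lay closer to even than the members. Their median log2 ratio was -0.04, and in 90 of 127 pairs the member had the lower ratio. Of 45 members in such pairs that were at least 1.5-fold apart, 34 (75.6%) had a neighbour on the same side of 1. Among protein-coding genes and their own nearest protein-coding gene the same share was 306 of 468, or 65.4%. The mix of directions differed, since 39 of the 45 members were lower but 176 of the 468 protein-coding genes. Among lower genes the neighbour was below 1 for 28 of 39 members and 105 of 176 protein-coding genes. Among higher genes it was above 1 for all 6 members and 201 of 292 protein-coding genes. Pairs from the same 2 libraries are not independent trials, so these shares carry no interval. In 4 of the 45 member pairs the neighbour too was at least 1.5-fold apart, each time in the direction of the member.

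Across the 127 pairs Pearson's r of the log2 ratios was 0.29 and Spearman's rho 0.40, where protein-coding neighbours gave 0.18 and 0.15 over 5879 pairs. These are descriptions over pairs from the same 2 libraries, in which overlapping genes may share reads. Over the 92 pairs within 10 kb r was 0.60 and rho 0.48, and over the 42 of these that do not overlap 0.56 and 0.65. Protein-coding neighbours within 10 kb gave 0.15 and 0.16 over 4538 pairs. Over the 35 member pairs further apart, which include 4632415L05Rik with Cp, the values were 0.16 and 0.20. Single pairs weighed on r. Without 4632415L05Rik, which had 90 and 91 counts beside Cp (11 and 988 counts, 58070 bases away), r over all pairs was 0.49. Without D030055H07Rik it was 0.22, and over the pairs within 10 kb 0.48. These pairs were picked after their values were seen.

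**Figure D5:**
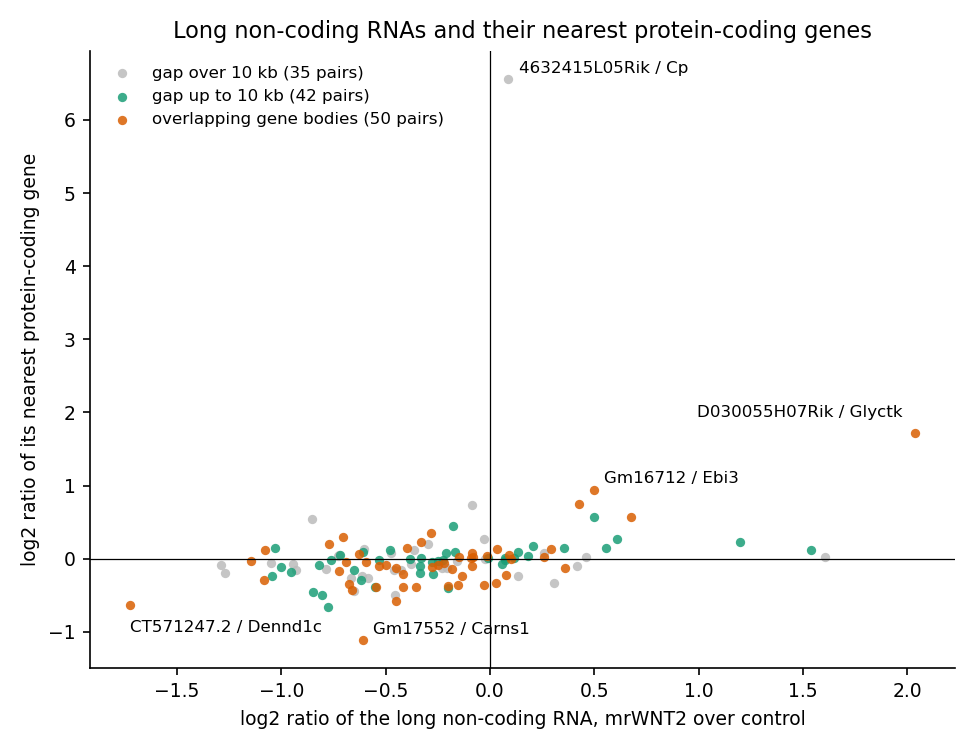
Log2 ratio of each member (horizontal axis) against that of its nearest protein-coding gene (vertical axis), mrWNT2 over control, for the 127 pairs in which both had at least 100 counts; colours give the distance between the gene bodies. Most neighbours lie close to 0 while members spread to the left of 0, and 4632415L05Rik with Cp stands apart at the top.

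Close pairs with a higher coding gene included Gm16712 opposite Ebi3, a cytokine subunit gene of the IL-12 family. Gm16712 had 128 and 172 counts (1.41-fold higher, 1.12 to 1.79) and Ebi3 381 and 698 (1.93-fold higher, 1.70 to 2.19), with 518 exonic bases in common with protein-coding exons. Gm13012, opposite the endothelin-converting enzyme gene Ece1, was 1.34-fold higher (1.05 to 1.72) with no exon overlap, and Ece1 1.68-fold higher (1.45 to 1.96). It lies within the gene body of Ece1, whose unspliced RNA may add reads to it if counting ignored the strand. 1700071M16Rik had 138 and 210 counts (1.60-fold higher, 1.28 to 1.998) opposite Pla2g7, a lipoprotein-associated phospholipase gene that was 1.48-fold higher.

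On the lower side, Gm17552 had 69 and 43 counts and Carns1, the carnosine synthase gene it overlaps, 145 and 64 (2.15-fold lower, 1.59 to 2.94). AC125351.1 lies 958 bases downstream of the kinase gene Map3k9 on the same strand. It had 439 and 244 counts (1.71-fold lower, 1.46 to 2.01), and Map3k9 1305 and 786 (1.58-fold lower, 1.44 to 1.73). Gm13431, upstream of the prostaglandin synthase gene Ptgs1, had 310 and 164 counts (1.797-fold lower, 1.48 to 2.19), and Ptgs1 was 1.37-fold lower (1.30 to 1.44). Gm20342, head to head with the chromatin remodeller gene Ino80d, was 1.75-fold lower (1.43 to 2.14) and Ino80d 1.41-fold lower (1.32 to 1.52). Ino80dos, which overlaps Gm20342 on the same strand, had 65 and 38 counts and was 1.63-fold lower (1.07 to 2.495).

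Other pairs went apart. 1700020I14Rik was 1.13-fold lower beside the mitotic gene Oip5, which was 1.36-fold higher (1.02 to 1.84), and Rab10os had 166 and 130 counts opposite Rab10, which was 1.27-fold higher (1.17 to 1.39). Start sites of 23 members lay within 1 kb of that of their nearest gene on the other strand. For the 21 such pairs that were measured, rho was 0.64, and the median difference in log2 ratio, member minus neighbour, was -0.17.

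Pairs of adjacent members were also compared. Within 50 kb of each other lay 8 such pairs, and 7 had ratios on the same side of 1. Since 72.4% of members had a ratio below 1, most pairs of any members share a side. The count alone therefore shows no link between adjacent members. Ino80dos and Gm20342, which overlap, may also share reads. Mirt1 and 4833407H14Rik, which overlap on opposite strands, had log2 ratios of -0.73 and -0.58, and Junos, opposite the transcription factor gene Jun, and Gm12708 had 0.26 and 0.46.

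The minimum of 100 counts set who was a member, and levels are therefore no finding. Just inside were Gm17173 with 45 and 55 counts, 9130221H12Rik with 50 and 51, and Ino80dos with 65 and 38. Just outside, each with 99, were 1810006J02Rik, Gm47815 and Gm33432, whose log2 ratios were -0.49, 0.76 and -1.27. In all, 19 members had under 50 counts in 1 of the libraries. Over the 144 with at least 50 in each the median log2 ratio was -0.24, with 7 at least 1.5-fold higher and 33 lower. Of these 144, 4 (2.78%) were at least 2-fold higher and 5 (3.47%) lower, against 6 and 11 of all 163.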

How the data were processed

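TRIzol was used to extract RNA and the NEBNext Ultra RNA kit to build the libraries, per the labels' protocols. Builds GRCm38 and mm10 appear in the submitters' processing notes, as do featureCounts 1.5.0-p3, DESeq2 1.20.0, HISAT2 2.0.5, CASAVA 1.8 and fastp. The authors deposited raw counts per gene and FPKM values per gene, 1 column for each library. Counts were scaled with TMM factors (0.992 and 1.01) in edgeR 4.0.16, and ratios carry no pseudocount. Annotation was GENCODE M21 (GRCm38), in which all 163 members were found, 158 at the same coordinates. The nearest protein-coding gene was that with the smallest gap between gene bodies, then the largest overlap. Promoter and microRNA sequences came from RefSeq (GRCm38.p6), and only promoters within 1 kb of the deposited start were kept, a limit set after the data were seen. The interval and neighbour code was tested on simulated data.

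Members and lists were chosen with earlier results of these data known. Named were the up to 12 highest and lowest of the members at least 2-fold apart, the 10 highest by CPM and 5 by FPKM, up to 6 members per list, the 3 genes on each side of the count minimum, the neighbours of the first group and the 8 pairs within 10 kb with the highest and lowest neighbour, and hosts of small RNAs. 9230112E08Rik, 4632415L05Rik, 4833407H14Rik, Junos and Gm12708 were named after their values were seen. Alternatives covered scaling, the count minimum, overlaps, gene names, the call rule and the choice of neighbour.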

Additional observations from a re-analysis of the deposited data

How the results depend on the processing

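No paired analysis was possible because each group had 1 library, and for the same reason no library could be left out. With DESeq2 size factors, library totals or the authors' FPKM, the counts at least 2-fold apart stayed within 1 of those reported. The median log2 ratio lay between -0.31 and -0.25, and each of 57 named members stayed inside its counting interval. Such scaling only moves all log2 ratios by 1 constant, -0.034 for DESeq2 and 0.022 for library totals, so little else was possible. The FPKM gave the same log2 ratios as DESeq2 size factors. With a minimum of 50 counts, 8 of 285 members were at least 2-fold higher and 19 lower. With a minimum of 400 counts, 3 of 42 were higher and 4 lower, and r with the neighbour was 0.571. Without Gm and Rik models 1 of 42 was higher and 2 were lower. Among the 96 members that overlap no protein-coding gene, 5 were higher and 6 lower. Over their 77 measured pairs, which include 4632415L05Rik with Cp, r was 0.179 and rho 0.44. Over pairs within 10 kb r was 0.597. These settings hold fewer or more members by construction. In alternatives chosen after seeing the data, the 94 members without exon overlap had a median of -0.36, and with processed_transcript genes added it was -0.23. With neighbours restricted to measured genes, r was 0.24 over 163 pairs. Depth limits the rarer members: at 3 counts the floor was 0.224 CPM in control and 0.236 CPM in mrWNT2.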

Other observations

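Processed pseudogenes, intronless copies of messenger RNAs, lay on the other side of the long non-coding RNAs. The 222 with at least 100 counts had a median log2 ratio of 0.15, with 24 at least 1.5-fold higher and 11 lower in the mrWNT2 library, and their reads can come from the parent genes. Snhg11, annotated as protein-coding in the deposited table but listed with the snoRNA hosts, had 13 and 35 counts in control and mrWNT2 (2.83-fold higher, 1.46 to 5.83). Several RNAs known from other tissues were barely detected: H19 had 1 count in each library, Meg3 7 and 9, Hotairm1 1 and 2, and Miat 0 in both, a level that 3 counts would bound at 0.224 CPM (control) and 0.236 CPM (mrWNT2). Ptgs2os2, the gene of lincRNA-Cox2, had 10 and 5 counts.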
